A study of Saccharomyces cerevisiae with 11 samples.

Results

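The genes of amino acid synthesis and their activator GCN4 were followed through arrays of budding yeast that carried either a plasmid for human CFTR or a vector. The 43 listed genes encode enzymes of the arginine, histidine, branched-chain (leucine, isoleucine and valine), lysine, aromatic and threonine pathways, plus Gcn4. They were chosen by gene symbol, and each was represented by the brightest probe set annotated to it. Of these, 42 were measured, among 5449 genes in all, and the arginine gene ARG5,6 was not analysed here. All 42 lay above the background limit, a log2 level of -1.17 set by probe sets that matched no yeast gene, and each rested on 1 probe set.

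The study asked which yeast genes change when a foreign membrane protein is made, and total RNA was measured on Affymetrix arrays in 11 samples. The 4 CFTR samples carried pRS426PPGK-CFTR-3HA, in which the chloride channel CFTR, the protein altered in cystic fibrosis, bears an HA tag behind the PGK promoter, and the 7 controls carried the vector pRSGPD426 with a GPD promoter. Cultures of both groups were kept at 26 degrees under plasmid selection and harvested while growing in mid log phase, and the strain's genotype is not given in the labels. The plasmids thus differ in promoter as well as in CFTR, and the labels mark all controls as re-analysed. Of the mating type markers, 3 of 3 for MATalpha cells lay above the background limit, and 5 of 6 for MATa cells lay under it.

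Yeast makes all of the amino acids of its proteins, and when any of them runs short the kinase Gcn2 phosphorylates the initiation factor eIF2. This slows translation in general but lets ribosomes reach the GCN4 coding sequence, and Gcn4 then activates genes of many amino acid pathways together, a response called general amino acid control. The GCN4 transcript therefore need not follow the Gcn4 protein. Pathway regulators act beside it, among them Leu3 on leucine genes, Lys14 on lysine genes and the ArgR complex on arginine genes.

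The arrays did not fall into 2 even groups. The labels give each a sample code: CFTR replicates 2, 3, 4 and 1 have codes 7, 8, 9 and 10, vector replicates 1 to 3 have codes 3 to 5, and vector replicates 4 to 7 have codes 11 to 14. What the codes stand for is not given, no CFTR array shares a code range with a vector array, and so an effect of CFTR and one that follows the codes cannot be told apart. Vector replicates 1 and 2 were near copies of each other (SD of the difference across genes 0.111 on the log2 scale), as were replicates 5, 6 and 7 (0.098 to 0.13), against a median of 0.483 over the 21 vector pairs. Vector replicate 3 lay nearer to the CFTR arrays (0.163 to 0.278) than to the other vector arrays (0.379 to 0.515). Nothing ties the arrays to separate cultures, so the p-values reflect differences between arrays that may in part be technical, and the number of arrays limits the precision. Levels below are log2 of an intensity scaled to a mean of 1 per array, differences are in log2 units with their standard error (SE), and every adjusted p is from limma with Benjamini-Hochberg adjustment over all genes, with 0.05 as the threshold. In RNA from whole cultures, fewer cells with a transcript and less of it per cell cannot be told apart.

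Between the 4 CFTR and the 7 vector arrays, none of the 42 genes passed the test. In the same fit 0.918% of all genes passed (limma), so that 0 of 42 is near the background and is not a result about these genes. The lowest limma adjusted p of the 42 was 0.151, for HIS4. No gene of the 42 had its 4 CFTR arrays wholly above or below the 7 vector arrays, against 5.74% of all genes (2.4% above and 3.34% below). The median difference was 0.04 over the 42 genes and -0.04 over all genes, and 69.0% of the 42 lay above 0 against 42.2% of all genes. After quantile normalization these shares were 54.8% and 50.8%.

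GCN4 itself stood at 3.37 ± 0.06 (SD, n = 4) with CFTR and 3.37 ± 0.15 (SD, n = 7) with vector, a difference of -0.001 (SE 0.08, limma adjusted p = 0.994). The 4 arrays with CFTR read 3.31, 3.35, 3.37 and 3.45. The vector arrays of codes 3 to 5 read 3.22, 3.12 and 3.39, and those of codes 11 to 14 read 3.46, 3.48, 3.44 and 3.51. The CFTR arrays thus sat between the vector ranges and overlapped both.

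By pathway, the median difference of CFTR from vector was 0.24 for histidine, 0.11 for threonine, 0.08 for the branched-chain genes, 0.03 for the aromatic genes, -0.11 for arginine and -0.11 for lysine. These medians moved with the controls: lysine became 0.08 and aromatic -0.08 against vector codes 3 to 5 alone, histidine 0.07 there and 0.54 against codes 11 to 14, and lysine 0.05 and aromatic -0.02 without vector replicate 4. All 5 histidine and all 5 threonine genes had a difference above 0, though under quantile normalization 2 of the threonine genes fell below it. The histidine genes spanned 0.17 to 0.65 and the threonine genes only 0.03 to 0.14. The standard errors of the lysine genes ran from 0.14 for LYS4 to 0.28 for LYS9, and that of HIS4 was 0.22.

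**Figure D1:**
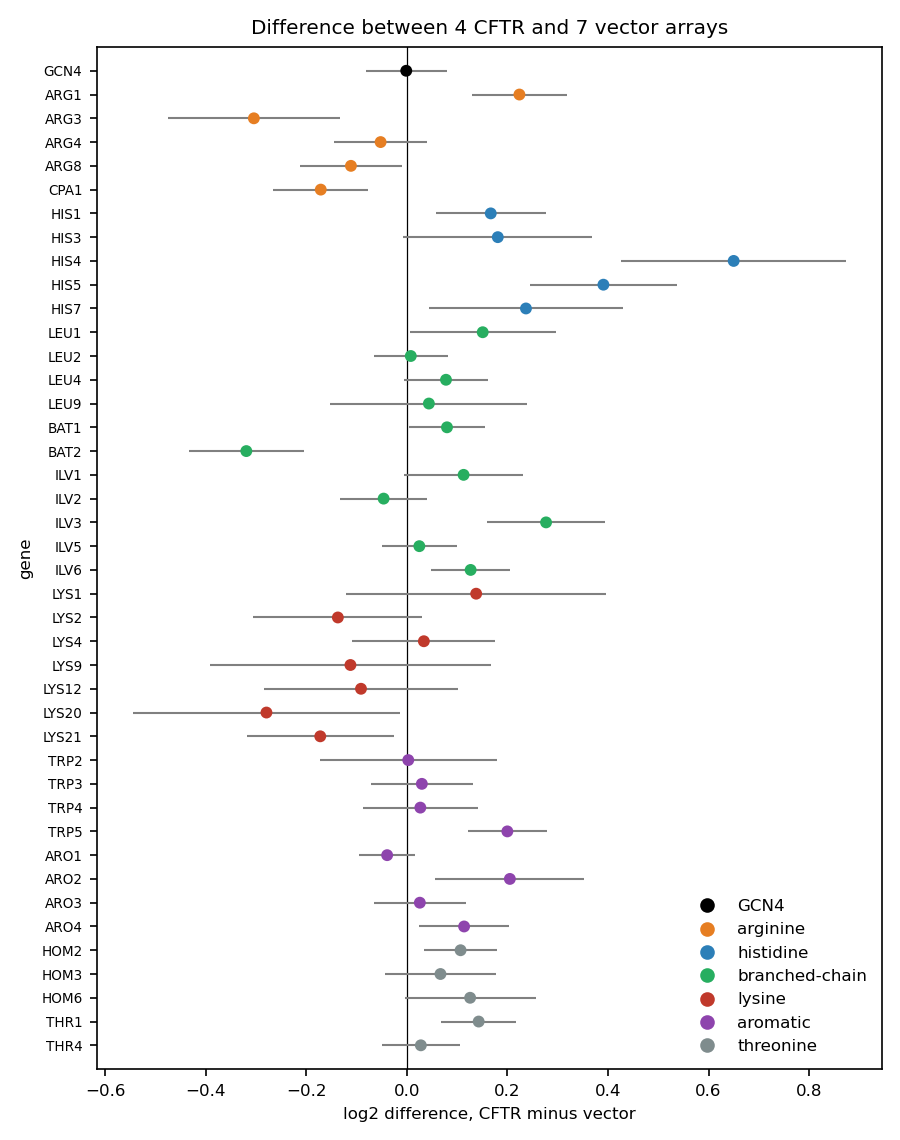
Difference in mean log2 level between the 4 CFTR and the 7 vector arrays for each of the 42 genes, coloured by pathway, with bars for the standard error from limma. HIS4 lies farthest from 0 at 0.65, and none of the 42 passed the test.

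The pathway means, on levels as deposited, were then compared with the controls split by code range. The mean over the 5 histidine genes was 1.28 to 1.77 in the CFTR arrays and 1.38 to 1.67 in vector codes 3 to 5, but 0.86 to 1.11 in vector codes 11 to 14, with no overlap. The mean over the 8 aromatic genes ran from 2.001 to 2.24 with CFTR, from 2.19 to 2.27 in codes 3 to 5 and from 1.76 to 2.04 in codes 11 to 14. The arginine mean was higher in codes 11 to 14 (2.26 to 2.41) than in codes 3 to 5 (2.10 to 2.23), with no overlap, and the CFTR arrays (2.06 to 2.27) overlapped both. Vector replicate 4 lay outside the other 10 arrays in every pathway: its mean was higher for lysine and arginine, and lower for the branched-chain genes (2.11 against 2.32 to 2.496), the threonine genes (2.70 against 2.80 to 3.003), the aromatic genes and the histidine genes. Vector replicates 1 and 2 had higher medians over all genes (0.05 and 0.10) than every other array (-0.32 to -0.24). With each array centred on its median, the vector ranges would overlap for the histidine and aromatic means, though not for arginine. Vector replicates 1 and 2 would then lie below replicate 4 for the branched-chain and threonine means.

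**Figure D2:**
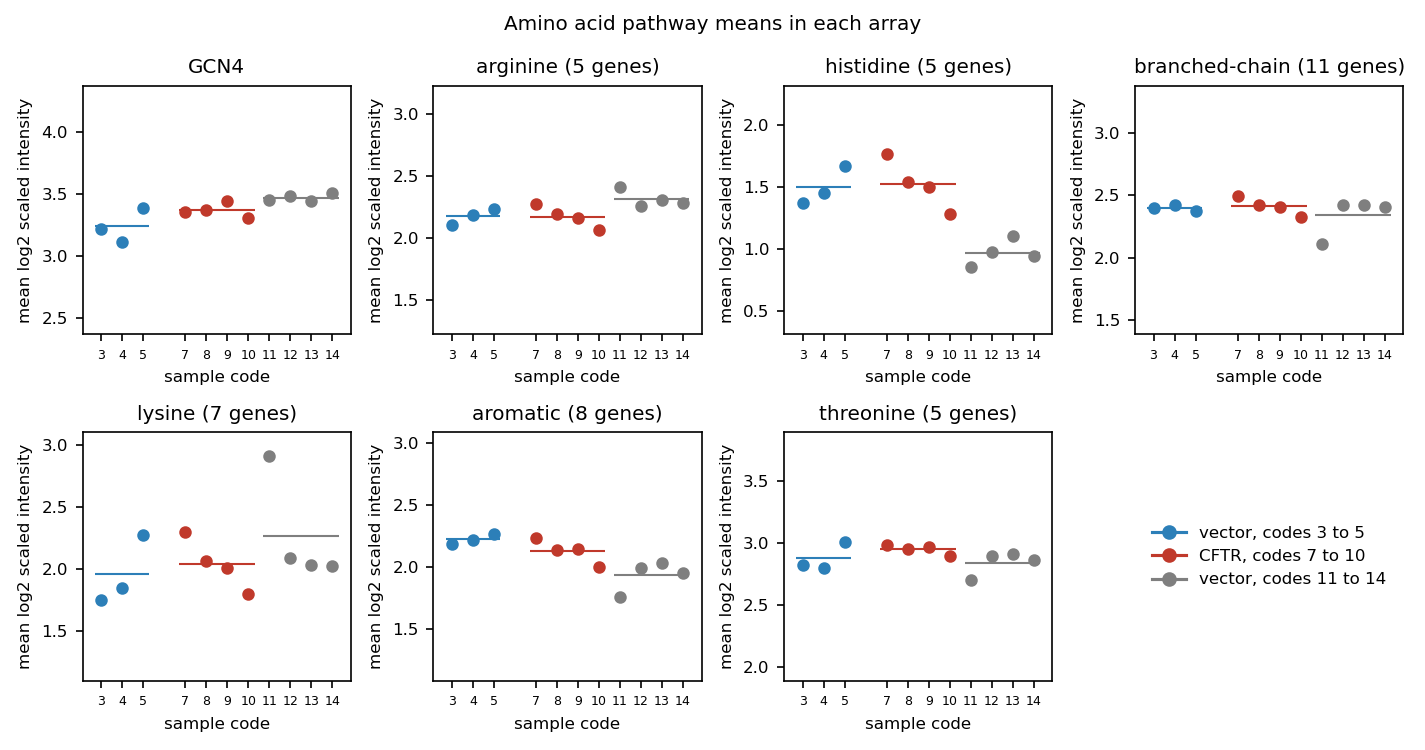
Mean log2 scaled intensity of each pathway's measured genes in each array, plotted by sample code, with a line at each group's mean. Every panel spans the same number of log2 units. On these levels as deposited, histidine means are lowest in vector codes 11 to 14. The lysine mean of vector replicate 4 (code 11), 2.92, lies above the other 10 arrays, which run from 1.75 to 2.30.

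Vector codes 11 to 14 were compared with vector codes 3 to 5 to see how far the genes move between arrays of 1 genotype. By this test 9 of the 42 genes (21.4%) differed, 3 higher and 6 lower in codes 11 to 14, against 27.1% of all genes (limma; 6.83% higher and 20.3% lower), so that the share is near the background and is not a result about these genes as a group. Groups that did not overlap were found for 20 of the 42, with 5 wholly above and 15 wholly below, against 38.6% of all genes (10.8% above and 27.8% below). The median of all genes was itself shifted by -0.19, since vector replicates 1 and 2 had higher medians over all genes (0.05 and 0.10) than the other 9 arrays (-0.32 to -0.24). The split of calls rested on that scaling: 372 genes rose and 1104 fell as deposited, 677 and 831 after quantile normalization, and 721 and 545 after centring each array on its median. Among the 42 genes the same splits were 3 and 6, then 2 and 14, then 3 and 2. With vector replicates 1 and 2 averaged to 1 array, and 5 and 7 likewise, 0 of the 42 and 14 of all genes passed in limma. Without vector replicate 3, 21 of the 42 and 3866 of all genes passed. It was 2 to 5 of the 42 without vector replicate 1, 2, 5, 6 or 7, and 10 without replicate 4.

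Of the 5 histidine genes, 3 fell between the code ranges as deposited, and of these HIS7 alone passed after median centring. HIS4, whose enzyme catalyses several steps of the pathway, read 2.57, 3.06, 2.85 and 2.83 in CFTR replicates 1 to 4. It read 2.38, 2.47 and 3.01 in vector replicates 1 to 3, and 1.67, 1.86, 2.02 and 1.81 in replicates 4 to 7. The 4 arrays of codes 11 to 14 were thus the lowest of all 11, and vector replicate 3 stood with the CFTR arrays. Between the vector ranges HIS4 fell by 0.78 (SE 0.16, limma adjusted p = 0.0176), a call that was lost under median centring (-0.54, adjusted p = 0.125).

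HIS7, for imidazole glycerol phosphate synthase, read 1.13, 1.14 and 0.92 in codes 3 to 5, against 0.26, 0.30, 0.53 and 0.33 in codes 11 to 14. It fell by 0.71 (SE 0.10, limma adjusted p = 0.00776), and the fall passed under quantile normalization and median centring as well. HIS3, for imidazoleglycerol-phosphate dehydratase and a common selection marker of laboratory yeast, read -0.34, -0.29 and -0.34, against -1.10, -0.88, -0.79 and -0.96. It fell by 0.61 (SE 0.10, limma adjusted p = 0.0117), to levels close to the background limit, and neither scaling kept the call. HIS3 was present in every array above that limit, and in the CFTR arrays it ran from -0.85 to -0.15, across the gap between the vector ranges.

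HIS5, for histidinol-phosphate aminotransferase, read 1.11, 1.26 and 1.65 in codes 3 to 5, 1.06, 0.90, 1.005 and 0.92 in codes 11 to 14, and 1.25, 1.81, 1.46 and 1.56 with CFTR. As deposited the vector ranges did not overlap, but the gene did not pass (-0.37, SE 0.13, limma adjusted p = 0.0648). With each array centred on its median, the vector ranges of HIS5 would overlap. HIS1, for the first enzyme of the pathway, overlapped between the ranges (-0.16, SE 0.15, adjusted p = 0.391). Its highest array was vector replicate 3, at 3.10, and its lowest vector replicate 4, at 2.38.

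Among the aromatic genes, TRP2, a subunit of anthranilate synthase, separated all 3 sets of arrays as deposited. It read 1.77, 1.91 and 1.76 in vector codes 3 to 5, 1.31, 1.55, 1.47 and 1.42 with CFTR, and 0.97, 1.23, 1.30 and 1.10 in vector codes 11 to 14. The CFTR arrays lay below the first range and above the second. Between the vector ranges TRP2 fell by 0.67 (SE 0.10, limma adjusted p = 0.00829), and this fall held under both scalings. The separation of the CFTR arrays does not: with each array centred on its median they would overlap both vector ranges.

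ARO2 encodes chorismate synthase, the last shared step of the aromatic pathways. Its vector arrays read 2.13, 2.15 and 2.33 in codes 3 to 5, then 1.41, 1.81, 1.82 and 1.74, and the CFTR arrays stayed with the first set at 2.01 to 2.19. The fall between the vector ranges was 0.51 (SE 0.12, limma adjusted p = 0.024). Median centring removed the call (-0.26, adjusted p = 0.281).

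The vector ranges did not overlap for 4 more aromatic genes, all lower in codes 11 to 14 as deposited, without passing (limma adjusted p from 0.0539 to 0.158). TRP3, for another part of anthranilate synthase, read 1.03, 1.17 and 1.17 in codes 3 to 5, then 0.70, 0.89, 0.95 and 0.87, and 0.83 to 1.15 with CFTR. TRP4, for anthranilate phosphoribosyltransferase, read 1.59, 1.62 and 1.45, then 0.98, 1.29, 1.36 and 1.26, and 1.29 to 1.497 with CFTR. For both, the CFTR arrays spanned the gap between the ranges.

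TRP5, for tryptophan synthase, read 2.74, 2.73 and 2.97 in codes 3 to 5 and 2.62, 2.65, 2.69 and 2.66 in codes 11 to 14. ARO4, for one of the enzymes that open the aromatic pathway, read 3.07, 3.03 and 3.10, then 2.62, 2.96, 2.99 and 2.93. Their direction rested on the scaling: after quantile normalization TRP5 and ARO4 fell by 0.30 and 0.40 (limma adjusted p = 0.00502 and 0.038), and after median centring they differed by 0.09 and 0.05. ARO1, whose protein carries out several steps before chorismate, was the steadiest of the 42 genes, with a range of 0.20 over the 11 arrays that was narrower than for all but 0.8% of genes.

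Of the branched-chain genes, ILV1 (threonine deaminase, the first step towards isoleucine) fell by 0.40 between the vector ranges (SE 0.08, limma adjusted p = 0.019), from 2.44, 2.43 and 2.33 to 1.84, 1.998, 2.08 and 2.08. The groups did not overlap, and the difference lost the call under median centring (-0.15, adjusted p = 0.346). LEU4, for the main synthase that opens the leucine branch, rose by 0.25 (SE 0.07, limma adjusted p = 0.0426), a call lost under either scaling. Its arrays read 2.71, 2.67 and 2.87 in codes 3 to 5 and 2.96, 3.03, 2.97 and 3.03 in codes 11 to 14. As deposited, its CFTR arrays (2.89 to 3.03) lay wholly above codes 3 to 5, but with each array centred on its median they would overlap that range.

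LEU9 encodes the second enzyme of the step that Leu4 catalyses, and it read the other way. It stood at 1.83, 1.93 and 1.43 in codes 3 to 5 and at 0.63, 1.31, 1.41 and 1.27 in codes 11 to 14 (-0.58, SE 0.21, limma adjusted p = 0.0661). The CFTR arrays, at 1.36 to 1.54, overlapped both ranges. LEU2, for isopropylmalate dehydrogenase, had no overlap either, at 2.42, 2.42 and 2.33 and then 2.45, 2.55, 2.55 and 2.53, without passing (0.13, SE 0.07, limma adjusted p = 0.145), and its CFTR arrays read 2.29, 2.60, 2.55 and 2.45. LEU9 had the widest range of the branched-chain genes, 1.30, and ILV5 and LEU2 the narrowest, 0.30 and 0.32.

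ILV6, the regulatory subunit of acetolactate synthase, and HOM2 of the threonine pathway turned sign with the scaling. As deposited they differed by 0.01 and 0.07 between the vector ranges, and after quantile normalization by -0.19 (limma adjusted p = 0.0481) and -0.22 (adjusted p = 0.0121). Their direction is therefore not settled. GCN4 behaved similarly without passing: it was 0.23 higher in codes 11 to 14 as deposited (SE 0.08, limma adjusted p = 0.0591, no overlap) and -0.06 after quantile normalization.

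As deposited, the arginine genes split within the pathway. ARG3, for ornithine carbamoyltransferase, read 1.49, 1.72 and 1.45 in codes 3 to 5, 1.64, 1.70, 1.57 and 1.45 with CFTR, and 2.47, 1.96, 2.07 and 2.08 in codes 11 to 14. Only the last range stood apart, and ARG3 rose there by 0.59 (SE 0.13, limma adjusted p = 0.023), which also passed under both scalings. CPA1, the small subunit of the carbamoyl phosphate synthetase that feeds Arg3, moved alike.

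CPA1 read 2.51, 2.53 and 2.58, then 2.98, 2.81, 2.77 and 2.84 (0.31, SE 0.07, limma adjusted p = 0.0251), with CFTR arrays at 2.48 to 2.59. Quantile normalization left it just short of the threshold (0.19, adjusted p = 0.0573). ARG4, for argininosuccinate lyase, the last step, instead read 2.58, 2.58 and 2.69 in codes 3 to 5 and 2.19, 2.36, 2.51 and 2.33 in codes 11 to 14. As deposited it was lower in every array of the latter, without passing (-0.27, SE 0.09, limma adjusted p = 0.0559). With each array centred on its median, the vector ranges of ARG4 would overlap. ARG1, the step before it, and ARG8, an earlier aminotransferase, overlapped between the ranges.

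**Figure D3:**
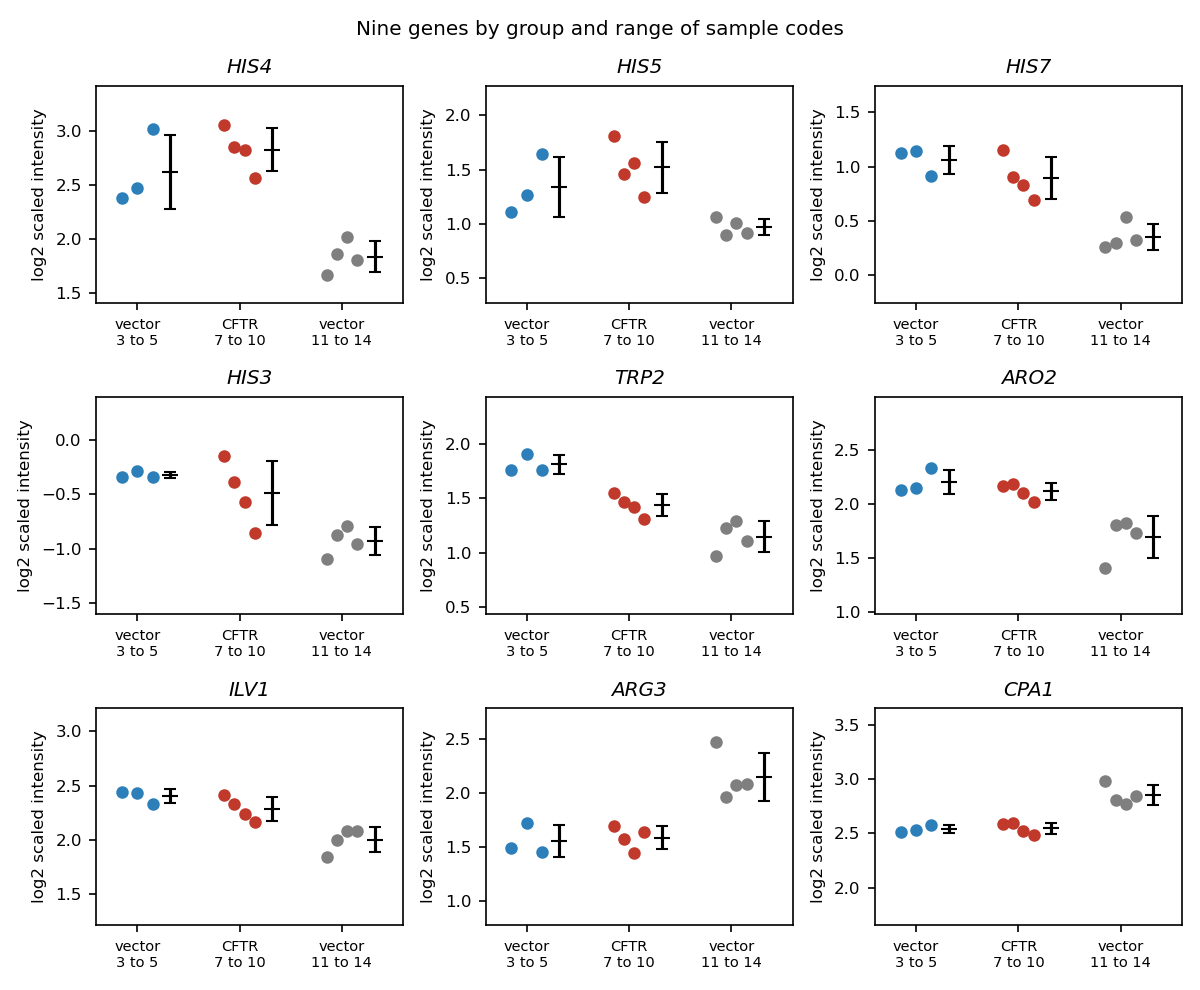
Log2 scaled intensity of 9 genes in each array of vector codes 3 to 5, CFTR codes 7 to 10 and vector codes 11 to 14, with the mean and SD of each set beside the points. HIS4, HIS7, HIS3, TRP2, ARO2 and ILV1 are lower, and ARG3 and CPA1 higher, in vector codes 11 to 14 than in codes 3 to 5, while HIS5 did not pass that test.

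The calls for CFTR rested on the controls it was set against. Against vector codes 3 to 5 alone, 0 of the 42 genes passed in limma, where 0.0184% of all genes did. As deposited, groups did not overlap for 4 of the 42 (LEU4 and ILV5 above, ARG4 and TRP2 below), against 16.1% of all genes (5.03% above and 11% below). Of these 4, only ILV5 would stay apart with each array centred on its median. Against vector codes 11 to 14 alone, 11 of the 42 rose and 4 fell (35.7%), where 43.9% of all genes passed (26.9% higher and 17.0% lower), so that the share was again no higher than the background. Groups did not overlap for 8 genes above and 4 below, against 25.9% and 15.9% of all genes. Both comparisons share the CFTR arrays with the comparison of all controls.

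All 5 histidine genes rose against codes 11 to 14, HIS4 by 0.99 (SE 0.11, limma adjusted p = 0.000325), HIS5 by 0.55 (SE 0.11, adjusted p = 0.00445), HIS7 by 0.54 (SE 0.10, adjusted p = 0.00361), HIS3 by 0.44 (SE 0.14, adjusted p = 0.0309) and HIS1 by 0.24 (SE 0.08, adjusted p = 0.0497). For HIS4, HIS5 and HIS7 the arrays did not overlap. HIS1 lost the call after quantile normalization, and HIS3 without vector replicate 4. The other genes that rose were ARG1, ILV1, THR1, ARO2, TRP2 and TRP5, by 0.21 to 0.42. ARG3 fell by 0.56 (SE 0.11, adjusted p = 0.00406), CPA1 by 0.30, BAT2 by 0.39 and LYS21 by 0.34. With vector replicates 5 to 7 averaged to 1 array, 9 calls were left: HIS4, HIS5, HIS7, ILV1, TRP2, ARO2, ARG3, CPA1 and BAT2.

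As deposited, BAT2 was lower with CFTR than in both vector ranges, apart from 1 control. It encodes the cytosolic branched-chain aminotransferase, which acts in breakdown as well as synthesis. It read -0.25, -0.02, -0.13 and -0.21 with CFTR. The vector arrays read 0.19, 0.28, -0.26, 0.27, 0.32, 0.09 and 0.28 in order of replicate, so that replicate 3 lay below every CFTR array and the other 6 above them all. With each array centred on its median, vector replicates 1 to 3 would lie within the range of the CFTR arrays.

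Over all 7 controls BAT2 differed by -0.32 (SE 0.11, limma adjusted p = 0.166), and without vector replicate 3 it fell by 0.39 (SE 0.08, adjusted p = 0.0137). In that fit 4 of the 42 passed, against 9.56% of all genes (4.04% higher and 5.52% lower), so that the share is near the background. As deposited, groups then did not overlap for 3 of the 42 above (HIS4, TRP5 and THR1) and 1 below (BAT2), against 5.95% and 9.21% of all genes. The other 3 that passed were HIS4, which rose by 0.79 (SE 0.17, adjusted p = 0.0162), HIS5 by 0.48 (SE 0.11, adjusted p = 0.0252) and TRP5 by 0.24 (SE 0.07, adjusted p = 0.0432). TRP5 then had CFTR arrays at 2.76 to 3.03 and vector arrays at 2.62 to 2.74. BAT1, the mitochondrial isoenzyme of BAT2, showed no such gap, at 3.02 to 3.19 with CFTR and 2.83 to 3.15 with vector (0.08, SE 0.08, adjusted p = 0.604).

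**Figure D4:**
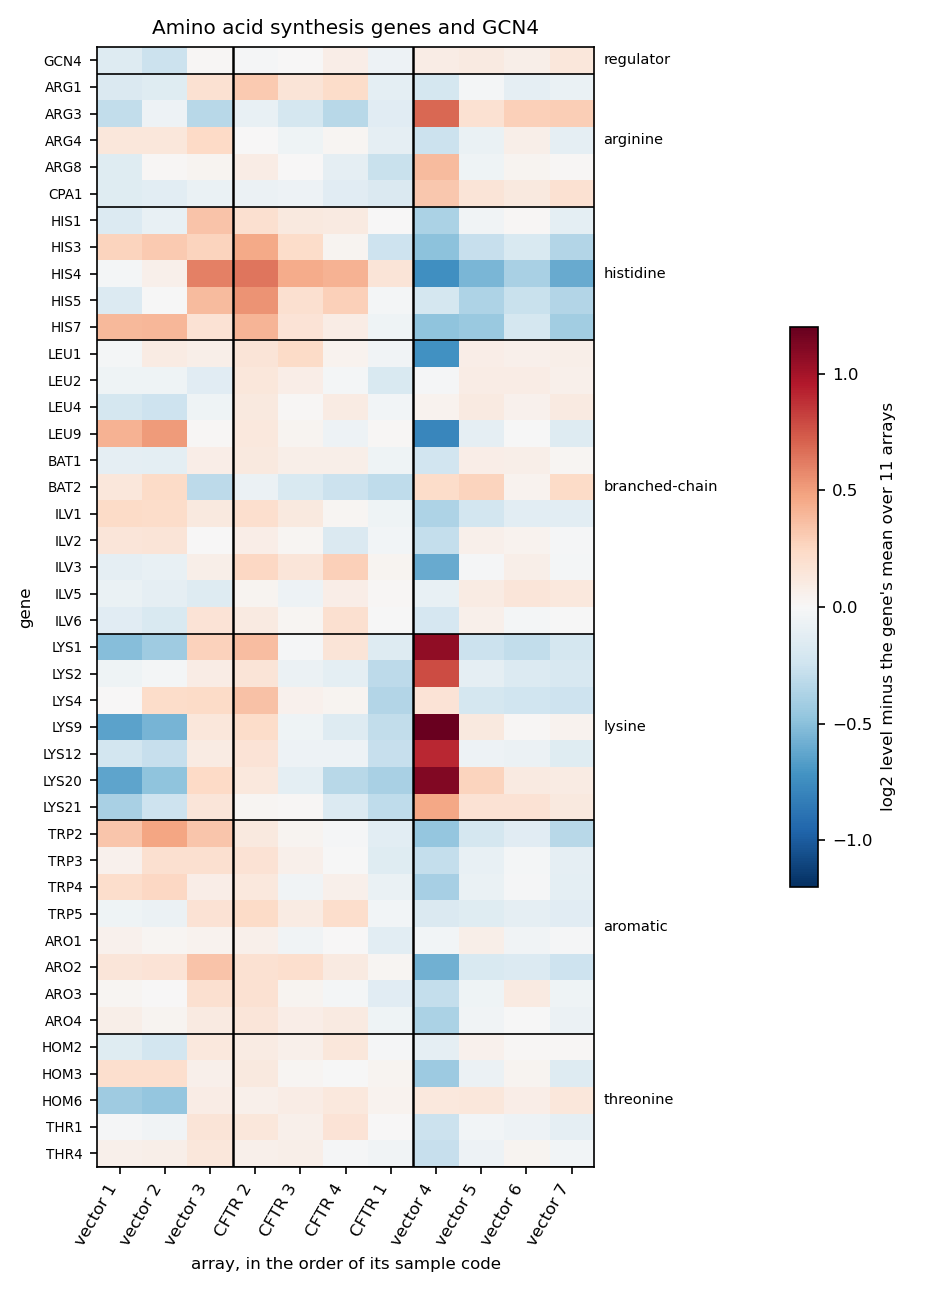
Log2 level of each of the 42 genes minus its mean over the 11 arrays, with arrays in the order of their sample codes and genes grouped by pathway. On these levels as deposited, histidine genes other than HIS1 are low in vector codes 11 to 14. Vector replicate 3 resembles the CFTR arrays for HIS4, HIS5 and BAT2, and most lysine genes are high in vector replicate 4.

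Vector replicate 4 was the highest of the 11 arrays for 9 of the 42 genes, against 14.7% of all genes, and the lowest for 23, against 20.8% of all genes. Set against the mean of vector replicates 5 to 7, it was at least 0.5 higher for 5 of the 42 genes (4.39% of all genes) and at least 0.5 lower for 3 (2.95%). It is 1 array, so these values are a description with no test.

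The 5 higher genes all belong to lysine synthesis. LYS1, for the last enzyme of the pathway, read 3.17 in replicate 4 and 1.59 to 2.47 in the other 10 arrays. LYS9, for the step before it, read 3.57 in replicate 4, 1.74, 1.82 and 2.52 in replicates 1 to 3, 2.498, 2.40 and 2.42 in replicates 5 to 7, and 2.08, 2.60, 2.33 and 2.22 with CFTR. LYS20, one of the homocitrate synthases that open the pathway, read 3.48 against 1.74 to 2.63. In each case replicate 4 lay above every other array.

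LYS12, for homoisocitrate dehydrogenase, read 3.39 against 2.21 to 2.65, and LYS2, for aminoadipate reductase, 2.91 against 1.80 to 2.28. Above replicates 5 to 7 the difference was 1.32 for LYS1, which ranked 26 of 5449 genes, 1.14 for LYS9, 0.997 for LYS12, 0.95 for LYS20 and 0.94 for LYS2. LYS21, the other homocitrate synthase gene, was 0.31 higher, and LYS4, for homoaconitase, 0.40 higher but within the range of the other arrays. LYS14, which encodes the pathway's own activator, read 0.32 in replicate 4 and -0.77 to 0.08 elsewhere.

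The 3 lower genes belong to the branched-chain pathways. LEU1, for isopropylmalate isomerase, read 1.71 in replicate 4 and 2.39 to 2.66 in the other 10 arrays. ILV3, for dihydroxyacid dehydratase, read 2.33 against 2.82 to 3.22, and LEU9 read 0.63 against 1.27 to 1.93. LEU1 was 0.79 below replicates 5 to 7, the rank of 15 from the bottom among 5449 genes. The enzymes made from LEU1 and ILV3 carry iron-sulfur clusters, as does that of LYS4, which was not lower in replicate 4. The glutamate synthase Glt1 carries them too, and its gene, picked after its values were seen, read 1.30 in replicate 4 and 1.83 to 2.24 elsewhere.

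Some genes of iron uptake and iron sparing, picked after their values were seen, also stood apart in this array, and other iron genes are not reported here. FIT2, for a cell wall mannoprotein of siderophore uptake, read 3.63 against -1.12 to 0.71 in the other arrays. ARN2, a siderophore transporter, read 2.74 against -1.49 to -0.27, and TIS11 (also called CTH2), for a factor that lowers transcripts of iron-using proteins, 1.87 against -2.23 to -0.67. Their part in the levels of LEU1, ILV3 and the lysine genes was not tested.

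**Figure D5:**
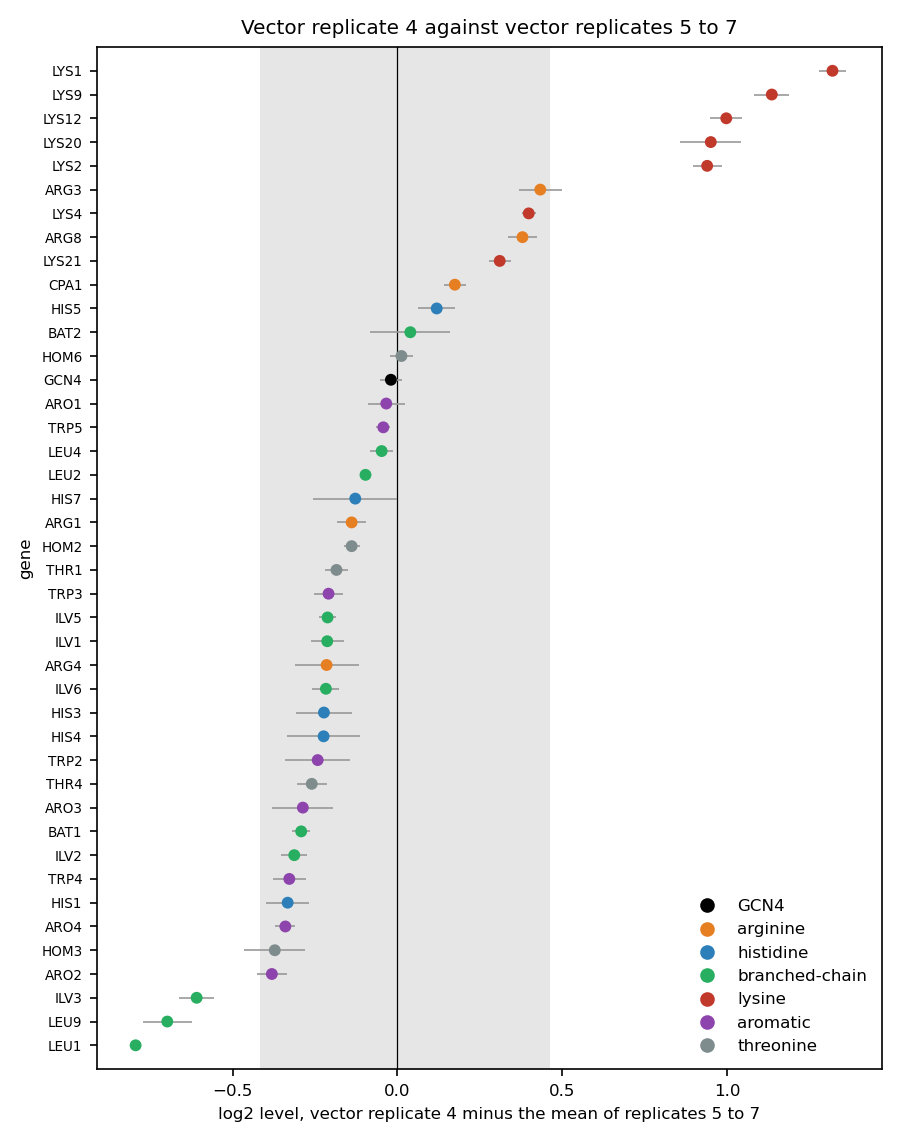
Log2 level in vector replicate 4 minus the mean of vector replicates 5 to 7 for each of the 42 genes, coloured by pathway, with bars for the SD of replicates 5 to 7. The grey band spans the 5th to the 95th percentile of all 5449 genes, -0.41 to 0.46. LYS1, LYS9, LYS12, LYS20 and LYS2 lie above it and ILV3, LEU9 and LEU1 below.

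Without this array the lysine genes went both ways between the vector ranges, and their median difference was 0.05 in place of 0.30. LYS20, LYS9 and LYS21 were 0.45, 0.41 and 0.32 higher in codes 11 to 14 without passing, and LYS4 fell by 0.39 (SE 0.08, limma adjusted p = 0.0306). With it none of the 7 passed between the ranges (lowest adjusted p 0.0685, for LYS21, which was 0.40 higher). Among the other 10 arrays lysine levels still varied: their means ran from 1.75 and 1.85 in vector replicates 1 and 2 to 2.28 in vector replicate 3 and 2.30 in CFTR replicate 2. CFTR replicate 1 was the lowest CFTR array for each of the 7 lysine genes. This was not particular to lysine, since its mean was the lowest of the CFTR arrays in every other pathway as well. Against codes 11 to 14 without replicate 4, LYS1 rose by 0.34 (SE 0.11, limma adjusted p = 0.0365) and LYS20 fell by 0.34 (SE 0.12, adjusted p = 0.047). That fit was added after seeing the data, and 2741 of all genes passed in it. Its controls were vector replicates 5 to 7, near copies of each other, so its p-values overstate the precision. LYS1 differed by 0.009 with replicate 4 kept and by -0.32 with replicates 5 to 7 averaged, so its direction is not settled.

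Over all arrays the 42 genes were about as variable as the rest, with a median range of 0.62 against 0.69 for all genes, and 8 had a range of at least 1, against 22.2% of all genes. The widest were LYS9 (1.84), LYS20 (1.74), LYS1 (1.58), HIS4 (1.38) and LEU9 (1.30). Genes of 1 reaction did not move as pairs in every case. LYS20 and LYS21 shared their highest array, vector replicate 4, and ARO3 and ARO4, for the enzymes that open the aromatic pathway, shared their lowest, again replicate 4, whereas LEU4 and LEU9, like BAT1 and BAT2, did not share either.

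None of the 5 threonine genes, whose pathway also supplies isoleucine, passed between the vector ranges as deposited. HOM3, for aspartate kinase, read 2.78, 2.78 and 2.64 in codes 3 to 5 and 2.14, 2.51, 2.61 and 2.43 in codes 11 to 14 (-0.31, SE 0.12, limma adjusted p = 0.071). THR4, for threonine synthase, read 2.73, 2.74 and 2.81, then 2.39, 2.61, 2.698 and 2.63 (-0.175, SE 0.09, adjusted p = 0.147). For both genes the vector ranges did not overlap as deposited, though they would with each array centred on its median. After quantile normalization HOM3, THR4, THR1 and HOM2 fell, and after median centring THR4 turned to 0.07.

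HOM6, for homoserine dehydrogenase, differed most of the 5 between the vector ranges, though these overlapped: vector replicates 1 and 2 read 2.68 and 2.64 and the other 9 arrays 3.15 to 3.25. With every vector array kept, HOM6 was 0.39 higher in codes 11 to 14 (SE 0.13, limma adjusted p = 0.063). Without vector replicate 3, which read 3.20, it was 0.56 higher (SE 0.04, limma adjusted p = 5.85e-05). That fit left only the near copies 1 and 2 in codes 3 to 5, so its SE understates the spread, and 3866 of all genes passed in it. HOM3, THR4 and THR1, the last for homoserine kinase, were each lowest in vector replicate 4. THR1 had the largest CFTR difference of the 5 (0.14, SE 0.07, adjusted p = 0.331), at 2.73, 2.86, 2.78 and 2.89 with CFTR and 2.71, 2.69, 2.88, 2.47, 2.69, 2.66 and 2.62 in vector replicates 1 to 7. It alone of them rose against codes 11 to 14 (0.21, SE 0.06, adjusted p = 0.0207).

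The labels do not say which nutrients the medium lacked. Of the marker genes, LEU2 stood between 2.29 and 2.60 in all arrays and LYS2 between 1.80 and 2.91. URA3, the selection marker of pRS426 and its derivatives, read 3.51 to 3.70 with CFTR, 3.37 to 3.92 in vector codes 3 to 5 and 2.79 to 3.10 in codes 11 to 14. It was 0.60 lower in the latter vector range (SE 0.14, limma adjusted p = 0.025). HIS7 and ARO4 were the only 2 of the 42 genes that neighbour each other in the gene order of assembly R64, and HIS7 fell between the vector ranges while ARO4 differed by -0.19 (SE 0.10, adjusted p = 0.158).

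Genes around these pathways were read from 6 further lists. None of their members passed between CFTR and all controls, so the 2 with the lowest p of each are given as values. Among other steps of the same pathways ARG2, for the first arginine enzyme, differed by -0.41 and PHA2, for prephenate dehydratase, by -0.17. Among other synthesis genes AAT2, the cytosolic aspartate aminotransferase, differed by 0.19 and PRO3, the last enzyme of proline synthesis, by 0.17.

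Among permeases and their sensor, MMP1, the S-methylmethionine permease, differed by -0.53 and PTR3 of the sensor by -0.24. Among breakdown genes PUT1, for proline oxidase, differed by -1.44 (SE 0.48) and CHA1, for serine and threonine breakdown, by 0.48. Among pathway regulators LYS14 differed by -0.37 and PHO2 by -0.31. Among the kinase Gcn2, its partners and the eIF2 factors, the kinase gene PHO85 differed by -0.18 and SUI2, for the alpha subunit of eIF2, by -0.17. The limma adjusted p of these 12 genes ran from 0.135 to 0.375, and PTR3 and CHA1 lay under the background limit in both groups.

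Between the vector ranges, 24 genes of the 6 lists passed in either direction, out of 83 measured (28.9%), against 27.1% of all genes. The largest changes were in breakdown genes. PUT1 read -0.27, -0.70 and -0.93 in codes 3 to 5 and 1.60, 1.13, 1.11 and 1.22 in codes 11 to 14, and its CFTR arrays, at -1.37 to -0.62, stayed low. It rose by 1.89 (SE 0.18, limma adjusted p = 0.00215), and was the only listed gene to pass with those pairs of arrays averaged (adjusted p = 0.0382). ARO10, for a decarboxylase of aromatic amino acid breakdown, rose by 2.12 and ARO9, an aromatic aminotransferase, by 1.07, each from a mean under the background limit, and UGA2, of GABA breakdown, fell by 0.52.

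For the counts that follow, 20.3% of all genes fell and 6.83% rose in the same fit. Among the general control genes 6 of 14 fell and 0 rose (3 fell after median centring, and 0 with those pairs of arrays averaged), including GCD2, GCD6 and GCN3, for subunits of the eIF2 exchange factor, by 0.74, 0.63 and 0.46, and GCN20, for a partner of Gcn2 activation, by 0.57. GCN2 itself differed by -0.51 (limma adjusted p = 0.0714). Other synthesis genes gave 4 of 16 lower and 0 higher (2 lower after median centring), namely SER2 (-0.93) and SER1 (-0.44) of serine synthesis and PRO1 (-0.66) and PRO2 (-0.43) of proline synthesis. Other steps of the same pathways gave 4 of 10 lower and 0 higher (1 lower after median centring, ORT1), namely ORT1 (-0.81), the mitochondrial ornithine carrier, HIS6 (-0.51), TYR1 (-0.40) and LYS5 (-0.36).

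The regulators gave GAT1, a GATA activator of nitrogen genes, 0.63 higher, and ARG81 and ARG82 of the ArgR complex 0.77 and 0.70 lower, the last pair at levels under the background limit. The permeases gave AGP1 (0.30) and MUP1 (0.50) higher and SAM3 (-0.47) lower. The median of each list was -0.36 for other steps, -0.41 for general control, -0.30 for regulators, -0.19 for other synthesis, -0.13 for permeases and 0.13 for breakdown, beside -0.19 for all genes. Of the genes named here, HIS6, LYS5, TYR1, GCN3, SER1, PRO2, SAM3 and UGA2 lost the call after median centring, while PUT1, ARO10, GCD2, SER2 and ORT1 passed under both scalings. Between CFTR and vector codes 11 to 14, 30 of the 83 listed genes passed (36.1%), against 43.9% of all genes, among them PUT1, which fell by 2.25 (SE 0.17, limma adjusted p = 5.96e-05), and SER2, which rose by 0.76 (SE 0.10, adjusted p = 0.000635).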

How the data were processed

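RNA came from a hot phenol extraction with column cleanup and was labelled with biotin by in vitro transcription from the 3' end, per the labels' protocols. The authors deposited linear probe set intensities, and each array in the file averages 1, which shows a scaling to the array mean. How background was corrected and probes were summarised is not given in the sources used here. Every level is thus relative to the rest of its array.

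The deposited intensities were log2-transformed. Of 10715 probe sets, 5498 matched 1 gene of the R64 gene table through the platform annotation, 1746 named a gene absent from the table, 1 named several and 3470 named none, and the brightest probe set stood for each of 5449 genes (47 had several). The background limit is the 95th percentile of the 5216 unmatched probe sets. The tests between CFTR and vector arrays and between the vector code ranges used R 4.3.3 and limma 3.58.1, with lmFit and an eBayes step that follows the intensity trend. Exact permutation tests were meant for single genes that passed or did not overlap between CFTR and all vector arrays, and no member did, so none is given. Python 3.11.15 with matplotlib 3.10.9 made the figures.

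The members and the 6 further lists were chosen with earlier results of these data known. All members are accounted for by pathway; array values are given for GCN4, for members that passed either fit at 0.5 or more or did not overlap, for the largest change of each pathway, and for a few others as context, with CFTR arrays by range for some. From each list the 4 lowest p past the threshold are named, or 2 as values where none passed, and the marker genes whatever their p. TRP1 and some other listed genes are not reported here. On simulated data for the CFTR comparison over 5449 genes, 59.7% of genes changed by 0.5 were recovered, 82.1% at 1 and 100.0% at 2, with 10 false calls among 171. For the vector ranges the shares were 37.3%, 74.6% and 97.0%, with 4 false among 143. Genes and arrays were drawn independently, unlike the real ones. Alternatives were quantile normalization, median centring, no trend, robust eBayes, a dim gene filter, the mean of probe sets, near-copy arrays averaged, either control range alone and leaving out each array. The labels number the vector replicates, whereas the CFTR numbers only name arrays.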

Additional observations from a re-analysis of the deposited data

Results flagged for a closer look

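Each of the 42 genes was examined in both groups for 1 array far from the rest, by the gap to its nearest neighbour over the group's range. This marked 10 of 84 gene and group pairs (11.9%), where chance marks about 1 in 20 for independent arrays. Neither the genes nor the near-copy vector arrays are independent, so no excess can be read from that rate. All 10 lay in the vector group, and 8 of them were vector replicate 4. It was the highest of the 7 vector arrays for LYS2 (2.91, next 2.21), LYS9 (3.57, next 2.52) and LYS12 (3.39, next 2.58), and for ARG8, the acetylornithine aminotransferase gene (1.79, next 1.45). It was the lowest for LEU1 (1.71, next 2.41), ILV3 (2.33, next 2.82), ILV2, the catalytic subunit of acetolactate synthase (2.31, next 2.58), and ARO4 (2.62, next 2.93). Vector replicate 3 was the lowest for BAT2 (-0.26, next 0.09) and the highest for TRP5 (2.97, next 2.74). The cause was not tested.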

How the results depend on the processing

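Between CFTR and all vector arrays, 0 of the 42 genes passed in limma under every planned or added setting other than 2: 4 without vector replicate 3 and 15 with controls of codes 11 to 14 alone. The range on leaving out 1 array was 0 to 4 of the 42 and 2 to 521 of all genes (50 in full). All genes that passed numbered 200 after quantile normalization, 173 after median centring, 2393 with controls of codes 11 to 14 alone, 1 with codes 3 to 5 alone, 1 with vector replicates 1 and 2, and 5 and 7, averaged, and 1 with 1 and 2, and 5 to 7, averaged, the last a setting added after seeing the data. With controls of codes 3 to 5 alone the pathway medians were 0.01 for arginine in place of -0.11, 0.08 for lysine in place of -0.11, -0.08 for aromatic in place of 0.03 and 0.07 for histidine in place of 0.24. The last was 0.54 with codes 11 to 14 alone. Without vector replicate 4 the lysine median was 0.05 and the aromatic one -0.02.

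Between the vector ranges, 9 of the 42 genes became 16 after quantile normalization, 5 after median centring, 0 with vector replicates 1 and 2, and 5 and 7, averaged (14 of all genes) and 0 with 1 and 2, and 5 to 7, averaged (16 of all genes). Leaving out 1 array gave 2 to 21 of the 42 and 147 to 3866 of all genes. ILV6 (-0.19) and HOM2 (-0.22) reversed and passed after quantile normalization. Against codes 11 to 14, averaging replicates 5 to 7 gave 9 of the 42 and 1364 of all genes. The causes were not tested.

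Members that passed in neither fit were given no direction, so a change of their sign is not listed singly: for CFTR there were 19 such members with codes 3 to 5 alone, 10 without vector replicate 4, 6 under quantile normalization and 4 with median centring. Between the vector ranges there were 11 with median centring and 5 under quantile normalization. No paired analysis was possible because the CFTR arrays carry no replicate numbers in their labels. Dim signal limits HIS3, which came close to the background limit in vector codes 11 to 14.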
